A study of Mus musculus with 10 samples.

Results

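The cytosolic ribosome is built of a small (40S) and a large (60S) subunit, and each holds ribosomal RNA and a fixed set of proteins, most of them encoded by a single-copy gene. The genes described here were the 76 of 47937 listed genes whose symbol names a cytosolic ribosomal protein (Rpl or Rps with a number, Rplp0 to Rplp2, Rpsa), 46 of the 60S and 30 of the 40S subunit. Pseudogenes, S6 kinases, mitochondrial ribosomal proteins and genes such as Fau and Rps3a1, whose symbols follow another form, were outside the rule. The mRNAs of the family are short, abundant and read together, and begin with a stretch of pyrimidines, the terminal oligopyrimidine (TOP) tract, through which mTOR signalling sets their translation. In adipose tissue, as elsewhere, making ribosomes is a large share of the cost of growth.

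Visceral white adipose tissue (WAT) of C57BL/6 mice was profiled by poly(A) mRNA-seq in 10 libraries. Wild-type mice (Mof+/+) were compared with mice carrying 1 functional allele of Mof (Mof+/-), which encodes an acetyltransferase of histone H4. Of each genotype, 3 libraries came from mice on standard diet (SD), given as 8 weeks old in the series description, and 2 from mice on high-fat diet (HFD), given as 27 weeks old after 20 weeks of the diet, so that diet and age cannot be told apart. The paper gives a longer time on HFD and a range of ages, and which of these hold for the libraries was not settled. The allele is carried in every tissue, not in adipocytes alone, and RNA was taken from an equal weight of whole tissue, so that a change in the share of a cell type and a change in RNA per cell cannot be told apart.

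Totals of counts on genes ran from 1044355 to 17171947 per library, and the median member held 578 to 11603 counts in a library. Kat8, the gene of MOF, was at 21.5, 21.4 and 20.4 CPM (counts scaled to a library total of 1000000) in SD Mof+/+. It was at 12.2, 18.8 and 11.5 CPM in SD Mof+/-. On HFD it was at 18.1 and 19.2 CPM in Mof+/+ and 20.1 and 10.5 CPM in Mof+/-. HFD Mof+/- replicate 1 thus lay above both HFD Mof+/+ libraries, but on 21 counts, against 281 and 308 in those libraries. By edgeR's quasi-likelihood test, described below, the log2 fold change of Kat8 in Mof+/- was -0.22 on SD and 0.06 on HFD. Neither had an unadjusted p under 0.05. The column headings inside the files placed the third SD libraries of both genotypes in the opposite genotype from their sample labels, which were used throughout. Xist was found in all 3 SD Mof+/- libraries (139, 46.1 and 58.0 CPM) and had 0 counts in the other 7, whereas Ddx3y of the Y chromosome was at 73.3 to 100.0 CPM in SD Mof+/+, at 0 in SD Mof+/- and at 49.7 to 61.6 CPM in HFD libraries. These genes followed the sample labels and not the headings. Sex therefore cannot be told apart from genotype on SD, nor from diet in Mof+/-, although the study's methods describe male mice. HFD Mof+/- replicate 1 had the fewest counts, 26.9% of them on mitochondrially encoded genes, and 79490.2 CPM on 17 skeletal muscle genes, against 1923 CPM in HFD Mof+/- replicate 2 and at most 137 CPM in the others. Adipoq, a defining product of adipocytes, was at 879 to 6035 CPM in every library.

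The start sites of the family were read from RefSeq to show the TOP tract. Of the 76 members, 56 had a promoter entry, with 66 annotated starts in all. A C at the annotated start followed by C or T for a run of at least 6 letters was present at 11 of the 66 starts (16.7%), against 1.70% of all 32851 starts in the table. Both of the other motifs searched, CTTTCC and CCGGAAG (the core letters bound by ETS factors), were looked for on both strands of the 300 bases around each start. CTTTCC, which can overlap the run, was in 50% of the member windows and 26.6% of all windows, and CCGGAAG was in 36.4% and 8.86%. A match is a description of letters near an annotated start, and starts that are annotated a few bases off would be missed.

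The 30 bases around the start of 6 members are printed to show such runs, which span 6 letters in Rpl14 to 13 in Rpl15 here. The genes were chosen from the 11 after the windows were seen. Each is written 5′ to 3′ on the strand of the gene in build GRCm38.p6, with 10 bases before the start in lower case and the pyrimidine run from the first transcribed base on in capitals.
Rpl35 (chr2:39005112-39005141, minus strand): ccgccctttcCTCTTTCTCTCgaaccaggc
Rpl38 (chr11:114668570-114668599, plus strand): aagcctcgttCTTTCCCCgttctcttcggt
Rps6 (chr4:86857348-86857377, minus strand): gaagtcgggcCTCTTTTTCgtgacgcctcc
Rps18 (chr17:33955646-33955675, minus strand): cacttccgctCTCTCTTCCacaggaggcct
Rpl14 (chr9:120571507-120571536, plus strand): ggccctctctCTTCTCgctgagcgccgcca
Rpl15 (chr14:18270967-18270996, minus strand): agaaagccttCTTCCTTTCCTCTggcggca

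All 6 capital runs begin with C, the cap-site base of a TOP mRNA, and that of Rpl15 is the longest of the 11 that do. The annotated start of Rpl27a opens a longer run of 16 pyrimidines that begins with T and was not counted. In the comparison of genotypes on SD, the 11 members with such a run had a median log2 fold change of 1.58 and the 45 members without one had 1.50. The medians were 0.94 and 0.92 for diet in Mof+/+, 0.37 and 0.24 for genotype on HFD, and -0.30 and -0.46 for diet in Mof+/-.

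The family held a larger share of the counts in SD Mof+/- than in SD Mof+/+. Of all counts, 2.72, 2.15 and 4.02% fell on the family in SD Mof+/+ and 4.63, 5.27 and 9.26% did so in SD Mof+/-. All 3 SD Mof+/- libraries lay above all 3 SD Mof+/+ libraries, and replicate 3 stood well above the rest of its group. The means were 2.96% ± 0.957 (SD, n = 3) and 6.39% ± 2.51 (SD, n = 3), a ratio of 2.15. On HFD the share was 4.28 and 5.60% in Mof+/+ and 4.61 and 5.31% in Mof+/-, and these groups overlapped, with means of 4.94% ± 0.933 and 4.96% ± 0.491 (SD, n = 2 each). HFD Mof+/+ lay above SD Mof+/+ without overlap, by a ratio of 1.67, whereas HFD Mof+/- overlapped SD Mof+/-, with a ratio of means of 0.777. The widest 95% Clopper-Pearson interval of these shares, 4.57 to 4.65% in HFD Mof+/- replicate 1, covers counting error only and is far narrower than the spread between libraries.

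**Figure D1:**
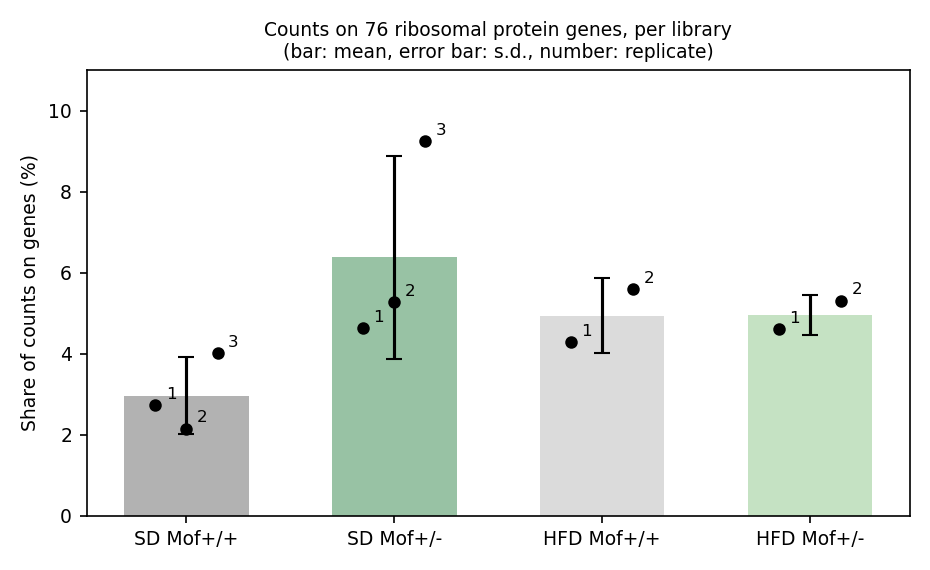
Share of counts on genes (%) that fell on the 76 ribosomal protein genes, with 1 point per library (number: replicate), bars for the group mean and error bars for the s.d. The 3 SD Mof+/- libraries sit between 4.63 and 9.26%, above the SD Mof+/+ libraries at 2.15 to 4.02%, and the 4 HFD libraries sit between 4.28 and 5.60%.

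Both subunits moved together. The 40S genes took 1.12, 0.879 and 1.73% of counts in SD Mof+/+ and 1.91, 2.31 and 4.20% in SD Mof+/-, and the 60S genes took 1.60, 1.27 and 2.29% and 2.72, 2.96 and 5.05%. The ratio of 60S to 40S counts stayed between 1.20 and 1.45 over the 10 libraries, and was lowest in HFD Mof+/- replicate 1 and SD Mof+/- replicate 3. Division of counts by transcript length raised the means to 7.56% in SD Mof+/+, 13.1% in SD Mof+/-, 11.3% in HFD Mof+/+ and 10.1% in HFD Mof+/-, and the ratio of genotypes on SD was then 1.73. Without mitochondrially encoded and skeletal muscle genes in the total, HFD Mof+/- replicate 1 rose to 7.08% and replicate 2 to 5.42%, and the ratio of genotypes on HFD was 1.22.

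Within the family the order of levels per length was much alike in all libraries. Spearman's rho of CPM per kilobase between 2 libraries had a median of 0.91 over the 45 pairs and ran from 0.80 to 0.98, as a description of genes that share a library. Rplp1, an acidic protein of the stalk of the 60S subunit, had the highest mean level at 3053 CPM per kilobase, followed by Rps12 (2376), Rps29 (2336) and Rplp2 (2099). The lowest was Rpl24 at 13.2 CPM per kilobase, with as few as 3 counts in a library, whereas every other member held at least 156. The next lowest were Rps20, whose annotated transcript of 3706 bases is the longest of the family, at 156 and Rpl5 at 249.8 CPM per kilobase. Ribosomal protein genes have many processed pseudogenes, and reads that fit several copies can be split or dropped by counting, so the levels of single members are uncertain. The 272 listed pseudogenes held 222 to 1385 CPM in sum, against 2.15 to 9.26% of counts on the members.

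**Figure D2:**
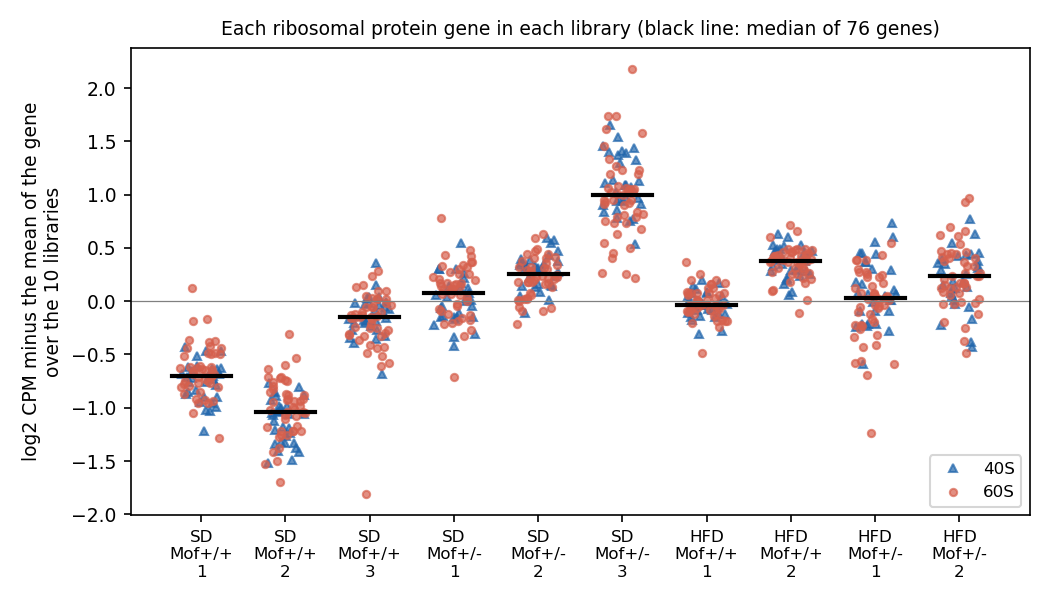
log2 CPM of each of the 76 genes in each library, less the mean of that gene over the 10 libraries (triangles: 40S, circles: 60S, black line: median). The median gene sits at -0.71, -1.04 and -0.15 in SD Mof+/+ and at 0.07, 0.26 and 1.002 in SD Mof+/-, and the 4 HFD libraries lie between -0.03 and 0.38.

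The first comparison asked how WAT of Mof+/- mice differs from that of Mof+/+ mice on SD. After TMM normalization, which scales libraries so that most genes do not differ, all 76 members had a positive log2 fold change of SD Mof+/- against SD Mof+/+, from 0.79 for Rpl3 to 2.41 for Rpl38, whereas 46.8% of the 13864 genes tested were positive. The median over the members was 1.50, a 2.82-fold difference, and that over all genes tested was -0.07. By edgeR's quasi-likelihood test with Benjamini-Hochberg adjustment over all genes, 27 of the 76 rose and none fell at an adjusted p under 0.05 (3.33% of all genes tested rose). At an unadjusted p under 0.05 the count was 75, against 14.1% of all genes. In CPM, 57 members were higher in every SD Mof+/- library than in every SD Mof+/+ library, against 9.71% of all genes, and after TMM 72 were, against 17.6%.

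Of the 27 that rose, 19 of 46 encoded proteins of the 60S subunit and 8 of 30 proteins of the 40S subunit, and the medians of the subunits were 1.48 and 1.50. Rpl11, which with Rpl5 and 5S rRNA forms a particle that can bind Mdm2, was at 348, 289 and 413 CPM in SD Mof+/+ and 756, 645 and 892 CPM in SD Mof+/-. The groups did not overlap, and the log2 fold change was 1.50 (SE 0.27, adjusted p = 0.0308), the lowest adjusted p of the family. Its partner Rpl5 was at 309, 196 and 507 CPM and 510.4, 584 and 987 CPM. The lowest SD Mof+/- library exceeded the highest SD Mof+/+ library by only a few CPM, and Rpl5 did not pass the test, with 1.43 (SE 0.42, adjusted p = 0.0758).

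Proteins around the exit of the peptide tunnel, where nascent chains leave the 60S subunit, gave 6 of 7 genes that rose, with a median of 1.67. Rpl35 was at 154, 124 and 207 CPM in SD Mof+/+ and 381, 336 and 573 CPM in SD Mof+/-, with a log2 fold change of 1.79 (SE 0.32, adjusted p = 0.0314). Rpl17 was at 429.8, 341 and 629 CPM and 906, 1062 and 1457 CPM, with 1.67 (SE 0.33, adjusted p = 0.0362). Both were separated between the genotypes in every library. Rpl38, a small 60S protein known for its part in the translation of Hox mRNAs, had the largest value of the family. It was at 156, 118 and 255 CPM in SD Mof+/+ and 409, 433 and 1268 CPM in SD Mof+/-, with 2.41 (SE 0.53, adjusted p = 0.0432), and replicate 3 of SD Mof+/- was by far the highest library.

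Of the 40S genes, Rps12 was at 472, 353 and 587 CPM in SD Mof+/+ and 901, 1244 and 2502 CPM in SD Mof+/-, with a log2 fold change of 2.12 (SE 0.44, adjusted p = 0.0386). Rps19, the gene most often mutated in Diamond-Blackfan anaemia, was at 349, 312 and 577 CPM and 805, 901 and 1433 CPM, with 1.73 (SE 0.36, adjusted p = 0.0393). For Rps25, a protein used in internal initiation, the values were 323, 241 and 382 CPM and 548, 628 and 982 CPM, with 1.57 (SE 0.33, adjusted p = 0.0394). In all 3 genes each SD Mof+/- library lay above each SD Mof+/+ library. Rps3, which sits at the mRNA entry, also rose (1.46, SE 0.34, adjusted p = 0.047), at 461, 343 and 792 CPM and 1039.7, 1060.2 and 1288 CPM.

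Rpl34 was at 214, 172 and 291 CPM in SD Mof+/+ and 407, 537 and 885 CPM in SD Mof+/-, a log2 fold change of 1.82 (SE 0.37, adjusted p = 0.0377). The X-linked Rpl36a was at 140.0, 98.8 and 188 CPM and 308, 329 and 786 CPM, with 2.14 (SE 0.45, adjusted p = 0.0394). The other 3 X-linked members did not pass the test, with values of 1.20 (Rps4x), 0.997 (Rpl10) and 1.69 (Rpl39) and adjusted p of 0.0784, 0.0526 and 0.0508, and the 4 values lay on both sides of the family median. Rpl41, which encodes the shortest protein of the ribosome, went from 420.5, 337 and 571 CPM to 766, 1159.9 and 2919 CPM, with 2.27 (SE 0.52, adjusted p = 0.0459). Rpl22, a protein that also binds other RNAs, was at 193, 133 and 261 CPM and 334, 383 and 577 CPM, with 1.52 (SE 0.35, adjusted p = 0.0452).

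None of the 3 genes of the stalk, which recruits elongation factors, passed the test. Rplp0, often used as a reference gene in qPCR, was at 782, 699 and 1189 CPM in SD Mof+/+ and 1013, 1175 and 1473 CPM in SD Mof+/-, with overlap and a log2 fold change of 0.83 (SE 0.30, adjusted p = 0.127). Its partners Rplp1 and Rplp2 had 1.72 (SE 0.48, adjusted p = 0.0689) and 1.62 (SE 0.58, adjusted p = 0.122). Rplp2 spread from 462, 858 and 2321 CPM within SD Mof+/-. Of the 6 members used as reference genes, Rpl19 (1.36, SE 0.32, adjusted p = 0.0472) and Rpl32 (1.64, SE 0.38, adjusted p = 0.046) rose. Rpl13a, Rps18 and Rps29 did not pass, with 1.81, 1.45 and 1.28 and adjusted p of 0.053, 0.0629 and 0.0804.

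The lowest value of the family belonged to Rpl3, a core protein near the peptidyl transferase centre, at 485, 365 and 673 CPM in SD Mof+/+ and 537, 633 and 856 CPM in SD Mof+/-, with overlap and 0.79 (SE 0.32, adjusted p = 0.162). Rps6, the S6 kinase substrate, was at 227, 169 and 404 CPM and 377, 474 and 455 CPM, also with overlap, and had 1.08 (SE 0.34, adjusted p = 0.0887). For Rpsa, the laminin receptor precursor, the values were 709.6, 685 and 1296 CPM and 1023, 1404 and 3177 CPM (1.46, SE 0.48, adjusted p = 0.103), and for Rps27a, which is made as a fusion with ubiquitin, 336, 202 and 499.9 CPM and 552, 633 and 1239 CPM (1.62, SE 0.44, adjusted p = 0.0653). Neither passed. Rpl24 had few counts and the largest error of the members named for this comparison, with 1.90 (SE 0.86, adjusted p = 0.204). The shortest member, Rps28 of 271 bases, and the longest, Rps20, had like values of 1.50 (SE 0.39, adjusted p = 0.0589) and 1.54 (SE 0.41, adjusted p = 0.0601).

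**Figure D3:**
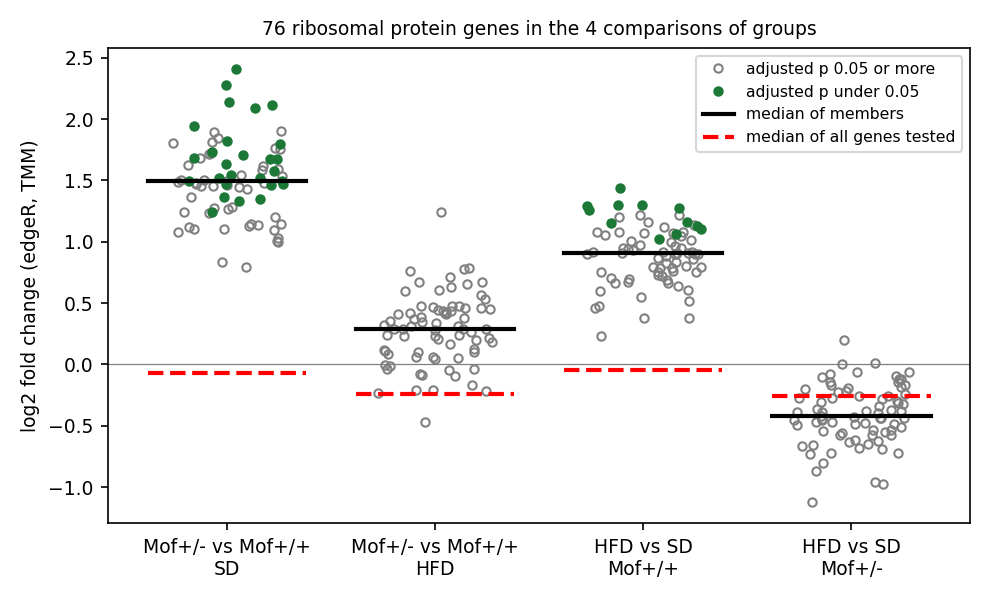
log2 fold change of each of the 76 genes in the 4 comparisons of groups (filled green: adjusted p under 0.05, open grey: not), with the median of the members (black line) and of all genes tested (red dashes). The members lie between 0.79 and 2.41 for genotype on SD, with 27 filled, and between 0.23 and 1.43 for diet in Mof+/+, with 12 filled, and none is filled in the other 2 comparisons.

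The number called differed between fits. DESeq2 called 74 members (9.35% of all genes rose by that tool) and edgeR without TMM 3 (1.18%), and with no TMM factor the median of all genes fell to -0.43 and that of the members to 1.11. All 76 were positive with either tool and with each normalization. Without SD Mof+/+ replicate 1, 2 or 3, or without SD Mof+/- replicate 2, no member passed, and 0.075, 0.123, 0.263 and 0.0815% of all genes rose in these 4 fits, whereas 51 did without SD Mof+/- replicate 1 (4.51% of all genes) and 14 without SD Mof+/- replicate 3 (2.88%), with medians from 1.10 to 1.78. With the third SD libraries grouped by the headings inside the files, no member passed, nor did any other gene (0% of all genes), 29 of 76 were positive against 49.3% of all genes and the median was -0.08, so the difference rests on the sample labels of these 2 libraries.

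Marker genes of cell types moved with genotype on SD too. The 8 endothelial markers, all detected, held 1133 to 2869 CPM in sum in SD Mof+/+ and 216 to 333 CPM in SD Mof+/-, and 6 of them fell, where 1.91% of all genes did. The 10 adipocyte markers held 34163 to 41702 and 61848 to 91445 CPM, and 5 rose, where 3.33% of all genes did. The 6 mesothelial markers held 23.8 to 59.1 and 169.8 to 349 CPM, and 4 rose. Of the 10 macrophage markers 3 rose (C1qa, C1qb and C1qc), with a list median of 0.71, and of the 8 stromal progenitor markers, all positive, 1 rose (Pi16). None of the 11 lymphocyte markers tested passed, with 10 negative and a median of -2.69. The part of these markers in the ribosomal protein difference was not tested.

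Ribosomal protein transcripts are short, and differences between the SD libraries went with transcript length over the whole transcriptome. The members were 271 to 3706 bases long with a median of 731.5, and 60 of 76 were under 1000 bases, against a median of 2688 bases over the genes tested. Over genes outside the family, Spearman's rho between level and length relative to the other libraries was 0.503, 0.499 and 0.467 in SD Mof+/+ and 0.159, -0.272 and -0.542 in SD Mof+/-, that is, long genes were relatively high in all 3 SD Mof+/+ libraries and relatively low in SD Mof+/- replicates 2 and 3. It was 0.108 and -0.0543 in HFD Mof+/+ and -0.151 and -0.348 in HFD Mof+/-. RNA quality values per library were not used here, and the part of fragment size or RNA quality in this trend was not tested.

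In the comparison of genotypes on SD, other genes under 500 bases had a median log2 fold change of 1.57 (367 genes), close to the 1.70 of the 14 members of that length. From 500 to 1000 bases the medians were 0.93 for 1059 other genes and 1.47 for 46 members. From 1000 to 2000 bases they were 0.31 for 3219 other genes and 1.46 for 14 members, and the 2 members over 2000 bases had 1.48 against -0.14. The distance between the family and other genes of its length thus grew with length. Among the members themselves, rho of fold change with length was -0.39, and it was -0.16 with the union of exons and -0.64 with the coding sequence of the principal transcript. After a correction of each library for its own trend with length over all genes, no member passed the test, where 1.64% of all genes rose, 71 of 76 were positive against 48.7% of all genes, and the median was 0.46 against -0.03. Over other genes the coefficient with length was then 0.02, and among the members, where it had been -0.39, it was 0.58. Such a correction takes out whatever follows length, and cannot tell a technical trend from a biological one.

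**Figure D4:**
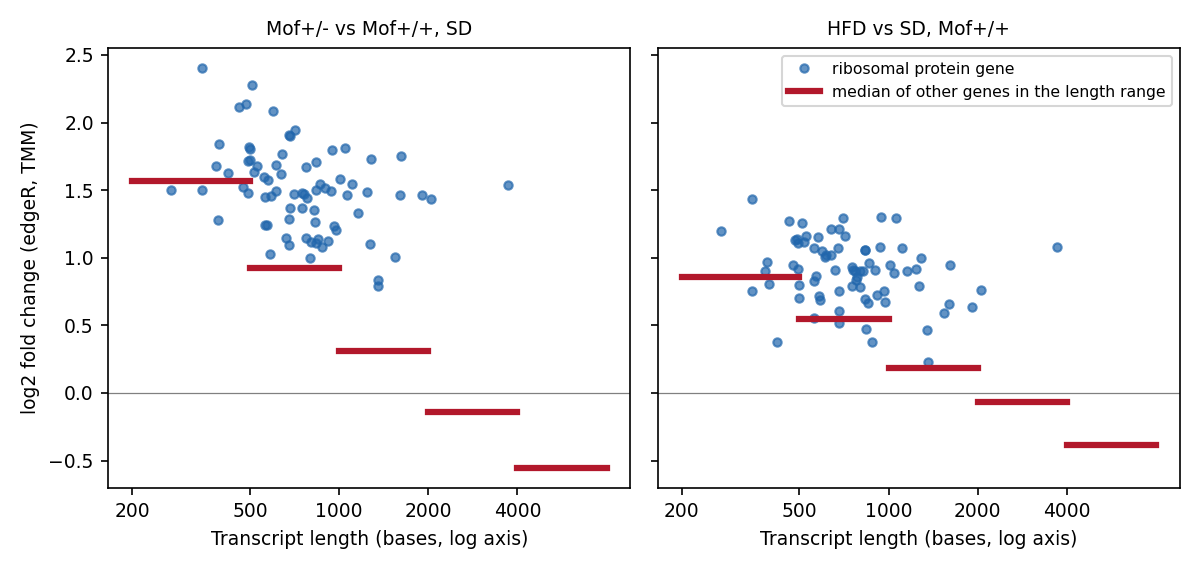
log2 fold change of each ribosomal protein gene (blue) against transcript length in bases (log axis) for genotype on SD and for diet in Mof+/+, with the median of other genes in each range of length (red bars). For genotype on SD the red bars step down from 1.57 under 500 bases to -0.55 over 4000 bases, while the medians of the members stay between 1.46 and 1.70.

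The second comparison asked what HFD changes in Mof+/+ WAT. All 76 members had a positive log2 fold change of HFD Mof+/+ against SD Mof+/+, from 0.23 for Rplp0 to 1.43 for Rpl38, with a median of 0.91 (1.88-fold) against -0.04 over the 14939 genes tested, of which 47.8% were positive. By edgeR, 12 rose and none fell, where 6.02% of all genes rose. At an unadjusted p under 0.05 the count was 60, against 14.5% of all genes. In CPM 53 members were higher in both HFD libraries than in all 3 SD libraries, against 21% of all genes, and after TMM 67 were, against 25.7%. This comparison and that of genotypes on SD share the 3 SD Mof+/+ libraries, so their results are not independent.

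The 12 genes comprised 10 of the 60S and 2 of the 40S subunit. Rpl35 was at 154, 124 and 207 CPM on SD and 312 and 414 CPM on HFD, with 1.30 (SE 0.25, adjusted p = 0.0266). Rpl11 was at 583 and 752 CPM on HFD (1.06, SE 0.22, adjusted p = 0.0312), above all 3 SD libraries. The tunnel exit protein Rpl31 was at 253, 206 and 354 CPM on SD and 483 and 729.5 CPM on HFD, with 1.29 (SE 0.28, adjusted p = 0.0366). Rpl23, which like Rpl11 and Rpl5 can bind Mdm2, went from 399, 279 and 526 CPM to 774 and 1027 CPM (1.30, SE 0.28, adjusted p = 0.0366). Rpl27 was at 179.7, 121 and 187 CPM on SD and 271 and 332 CPM on HFD (1.02, SE 0.23, adjusted p = 0.0396). All of these were separated between the diets.

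The 40S genes that rose were Rps12 (1.27, SE 0.27, adjusted p = 0.0328), at 849 and 1230.0 CPM on HFD, and Rps25 (1.15, SE 0.24, adjusted p = 0.0306), at 565 and 717 CPM. Rpl41 rose to 755 and 1174 CPM (1.25, SE 0.29, adjusted p = 0.0405), Rpl36a to 254 and 314 CPM (1.13, SE 0.27, adjusted p = 0.0463) and Rpl38 to 335 and 534 CPM (1.43, SE 0.35, adjusted p = 0.047). The stalk genes again did not pass. Rplp0 was at 890.2 and 1017 CPM on HFD, within the range of the SD libraries, and had 0.23 (SE 0.26, adjusted p = 0.613). Rplp2 had 0.38 (SE 0.28, adjusted p = 0.426) and Rplp1 0.80 (SE 0.26, adjusted p = 0.102). Of the members used as reference genes none passed, with values from 0.23 to 1.12. Rps6 was at 306 and 326 CPM on HFD, also within the SD range, with 0.38 (SE 0.34, adjusted p = 0.517).

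Calls by diet in Mof+/+ also turned on single libraries. Without SD Mof+/+ replicate 3, which had the highest share of its group, 64 members passed (8.88% of all genes), and without any other library of the comparison none did, with medians from 0.73 to 1.17 over all of these. In those 4 fits 1.13% (without SD Mof+/+ replicate 1), 3.75% (SD Mof+/+ replicate 2), 1.24% (HFD Mof+/+ replicate 1) and 0.33% (HFD Mof+/+ replicate 2) of all genes rose. DESeq2 called 52 (10.2% of all genes) and a fit to all 10 libraries none (0.78%), and the grouping by headings gave a median of -0.06 with none called (0% of all genes). Other genes under 500 bases had a median of 0.86 and members of that length 0.96, while from 1000 to 2000 bases the medians were 0.18 and 0.90. After the length correction no member passed, where 4.22% of all genes rose, and the median was 0.35. The 10 macrophage markers, all detected, held 1301 to 2187 CPM in sum in SD Mof+/+ and 5769.8 to 8024 CPM in HFD Mof+/+, with 7 higher and 1 lower by the test, where 6.02% of all genes were higher and 3.73% lower. Of the 10 adipocyte markers 2 were higher (Lep and Lpl) and 3 lower (Cfd, Retn and Slc2a4), and of the 12 lymphocyte markers 1 was higher (Ighm), while 9 had negative values and the list median was -1.31. The 8 endothelial markers were at 452 to 566 CPM, with 3 lower by the test, and the part of these lists in the ribosomal protein values was not tested.

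**Figure D5:**
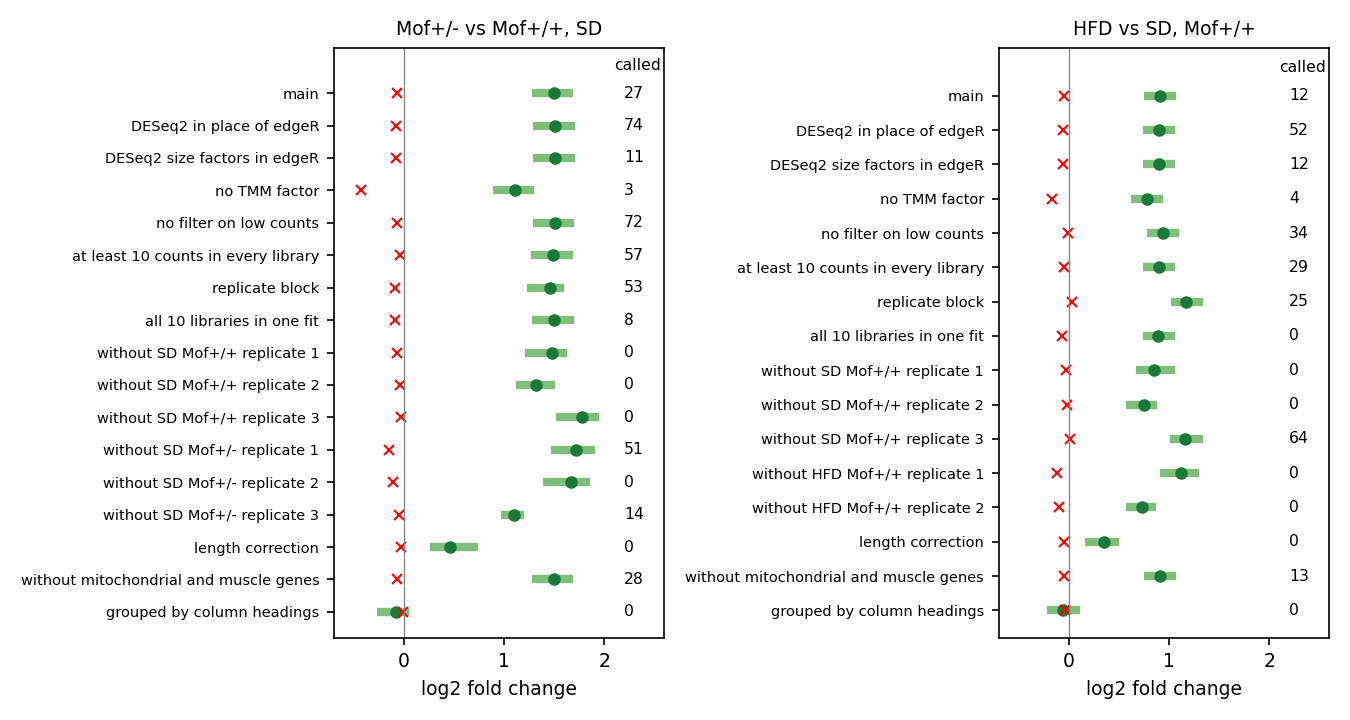
Median log2 fold change of the 76 members (green circle, bar from the first to the third quartile) and of all genes tested (red cross) under each setting, with the number of members called at an adjusted p under 0.05 at the right, for genotype on SD and for diet in Mof+/+ (main is the fit reported in the text). Medians stay between 1.10 and 1.78 and between 0.73 and 1.17 in all settings but 2, the length correction (0.46 and 0.35) and the grouping by column headings (-0.08 and -0.06).

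On HFD the genotypes were not distinguished in this family. By edgeR 0 of the 76 members and 0 of the 14120 genes tested passed (0% called). DESeq2 called 0 members, where it called 1.48% of all genes. At an unadjusted p under 0.05, 1 member was higher, against 3.34% of all genes. The median was 0.29 against -0.24 over all genes, with 62 members positive where 40.6% of all genes were. Without TMM the median of the members was -0.03 with 34 positive and that of all genes -0.54, so the members stayed above all genes by 0.51, against 0.53 with TMM. In CPM 5 members were higher and 14 lower without overlap (8.82% and 45.6% of all genes), and after TMM 33 were higher and 2 lower (14.9% and 35.2%).

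Rplp2 had the lowest p. It was at 542 and 701 CPM in HFD Mof+/+ and 936 and 1442 CPM in HFD Mof+/-, without overlap, and its log2 fold change was 1.25 (SE 0.45, adjusted p = 0.366). Rpl38 was at 335 and 534 CPM and 555 and 618 CPM (0.76, SE 0.40, adjusted p = 0.604). For Rpl18, Rps24 and Rps21 the log2 fold changes were 0.63, 0.78 and 0.65, with adjusted p of 0.647, 0.666 and 0.671. The lowest value was that of Rpl4, a 60S protein that lines the tunnel, at 866 and 1041 CPM in HFD Mof+/+ and 529.5 and 564 CPM in HFD Mof+/- (-0.47, SE 0.39, adjusted p = 0.773). Without the shallow and muscle-rich HFD Mof+/- replicate 1, 5 members were higher by the test where 10.2% of all genes were, and without replicate 2, 4 were, against 13.7%. In each case the lone Mof+/- library was assumed to vary like the Mof+/+ pair.

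Within Mof+/-, HFD gave no member that passed. By edgeR 0 of 76 members and 0 of 13610 genes passed (0% called). No member had an unadjusted p under 0.05, where 5.48% of all genes were lower. DESeq2 called 0 members, where it called 2.95% of all genes. The members were mostly negative, 73 of 76, with a median of -0.42 against -0.26 over all genes, of which 39% were positive. In CPM 14 members were lower on HFD without overlap, against 17.7% of all genes, and after TMM 16 were, against 19.7%. The median rested on SD Mof+/- replicate 3, and was 0.05 with 43 members positive without it. After the length correction 75 members were positive, with a median of 0.60 against 0.56 over all genes, of which 64.8% were positive. With a block for replicate number 41 were positive, with a median of 0.054 against -0.52 over all genes.

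Rpl4 had the lowest p at 1358, 932 and 948 CPM on SD and 529.5 and 564 CPM on HFD, without overlap, and -0.97 (SE 0.50, adjusted p = 0.644). Rps3 went from 1039.7, 1060.2 and 1288 CPM to 614 and 548 CPM (-0.96, SE 0.51, adjusted p = 0.653). Rpl17, Rpl7a and Rps6 had -0.87, -0.73 and -0.67, with adjusted p of 0.691, 0.698 and 0.702. In each of these 5 genes both HFD libraries lay below all 3 SD libraries in CPM. The highest value was 0.20 for Rps29 and the lowest -1.12 for Rpl24, whose SE was 1.20.

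The difference between the genotype effects of the diets was tested as an interaction over all 10 libraries. All 76 members had a negative interaction, with a median of -1.34 against -0.41 over the 15897 genes tested, of which 37.6% were positive. After the length correction, by contrast, 69 members were positive, with a median of 0.55 against 0.51 over all genes, of which 61.6% were positive. The values that follow are from the fit without that correction. By edgeR no member passed (0.0629% of all genes passed in that direction), 42 had an unadjusted p under 0.05 against 8.41% of all genes, and DESeq2 called 1 (1.81% of all genes). The lowest adjusted p was 0.245, for Rpl17 (-1.71, SE 0.52), followed by Rps25 (-1.71, SE 0.52), Rpl4 (-1.58, SE 0.49), Rpl7a (-1.47, SE 0.46) and Rpl11 (-1.39, SE 0.45). Rplp2 was nearest to 0 (-0.47) and Rpl24 farthest (-2.15, SE 1.40). That genotype moved the family on SD and not on HFD is therefore not established by these libraries.

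Ribosomal proteins that the symbol rule leaves out were followed as well. Of 11 listed, 8 were tested on SD, all 8 were positive and 2 rose, with a median of 1.11, where 46.8% of all genes were positive and 3.33% rose. Those that rose were Rpl22l1, the paralog of Rpl22, at 77.8, 84.1 and 81.2 CPM in SD Mof+/+ and 114, 196 and 301 CPM in SD Mof+/- (1.72, SE 0.37, adjusted p = 0.0419), and Rps27l, a p53 target, at 90.3, 81.9 and 83.9 CPM and 114, 179.8 and 293 CPM (1.58, SE 0.37, adjusted p = 0.0476). Fau, which encodes a 40S protein as a fusion, had 1.58 (SE 0.47, adjusted p = 0.0804), Rpl36al 1.16 (SE 0.30, adjusted p = 0.0595) and Rack1, a scaffold on the 40S subunit, 1.06 (SE 0.42, adjusted p = 0.154). Rps4l had 1.07, with an adjusted p of 0.252. Rpl7l1, whose protein acts in ribosome assembly, was at 88.3, 69.9 and 80.0 CPM in SD Mof+/+ and 70.3, 71.5 and 61.3 CPM in SD Mof+/- (0.13, SE 0.22, adjusted p = 0.75). Rps3a1, looked up after the data were seen because its symbol misses the rule, rose on SD (1.49, SE 0.35, adjusted p = 0.0461).

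In Mof+/+ on HFD 3 of the same 8 genes rose, where 6.02% of all genes did, namely Rps27l (1.39, SE 0.16, adjusted p = 0.00676), Rpl22l1 (1.16, SE 0.17, adjusted p = 0.0121) and Rpl36al (1.30, SE 0.23, adjusted p = 0.0203). Paralogs restricted to certain tissues were seen in few libraries or none. Rpl3l, the form of Rpl3 made in striated muscle, had 413 counts (395 CPM) in HFD Mof+/- replicate 1, the library with the most muscle counts, and 0 in the other 9. Rpl39l had 118 counts in HFD Mof+/- replicate 2, 10 and 9 in the HFD Mof+/+ libraries and 0 elsewhere. Rpl10l had 0 counts in all 10 libraries. A count of 0 allowed up to 0.175 to 2.87 CPM, that is 3 counts, depending on depth.

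Other parts of the translation machinery are given beside the family, with no test of a difference between lists. On SD 3.33% of all genes rose, and with HFD in Mof+/+ 6.02% did. Of 76 mitochondrial ribosomal protein genes tested, which translate the mitochondrial genome, 21 rose and none fell on SD, with a median of 0.96, led by Mrps6 (1.96, SE 0.31, adjusted p = 0.0246), Mrps21 (1.94, SE 0.36, adjusted p = 0.0325) and Mrpl54 (1.78, SE 0.34, adjusted p = 0.0333). With HFD in Mof+/+ 16 rose, with a median of 0.49, against 12 and 0.91 for the family. Between genotypes on HFD their median was 0.52 with 10 higher at an unadjusted p under 0.05, against 0.29 and 1 for the family and -0.24 and 3.34% for all genes. Of 20 TOP genes outside the family 3 rose on SD, with a median of 0.87, and these were Eef1b2, Btf3 and Npm1, with 1.79, 1.24 and 1.11 and adjusted p of 0.0413, 0.0419 and 0.0491. Of 34 initiation factors 1 rose, Eif2s3x (1.49, SE 0.35, adjusted p = 0.0472), with a median of 0.45. It is X-linked and can escape X inactivation. On SD none of the 27 ribosome biogenesis genes, which act in the nucleolus, passed, and their median was 0.02, and none of 11 genes that control ribosomal protein synthesis did, with a median of -0.57. Larp1, which binds TOP mRNAs, had -1.09 (SE 0.28, adjusted p = 0.0556). With HFD in Mof+/+ 4 of the 34 initiation factors rose, with 0.96 (Eif2s1), 0.82 (Eif4a1), 0.76 (Eif5a) and 1.08 (Eif5b), as did 1 TOP gene with 0.71 (Btf3) and 1 biogenesis gene with 1.22 (Nhp2), and 1 control gene fell, with -2.05 (Eif4ebp2). These were named after their values were seen.

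The elongation factors, whose mRNAs carry TOP tracts too, did not move as one. Eef1b2 was at 177, 169 and 315 CPM in SD Mof+/+ and 377, 560.5 and 813 CPM in SD Mof+/- and was the only 1 of 6 that passed. Eef1d and Eef1g had 1.24 (SE 0.32, adjusted p = 0.0566) and 0.82 (SE 0.30, adjusted p = 0.133). Eef1a1, the factor that brings tRNA to the ribosome, was at 3586, 3242 and 4812 CPM in SD Mof+/+ and 5242, 5782 and 3268 CPM in SD Mof+/-, with 0.65 (SE 0.29, adjusted p = 0.199). In SD Mof+/- replicate 3, where the ribosomal protein genes were highest, Eef1a1 was at the level of SD Mof+/+. Eef2, of 3089 bases, was at 1546, 1584 and 2116 CPM and 1621, 1479 and 1161 CPM (0.06, SE 0.25, adjusted p = 0.911). Eef1a2, the muscle and neuron form, was at 1.92, 57.7 and 2.45 CPM in SD Mof+/+, where replicate 2 stood apart, and 2.85, 2.01 and 1.93 CPM in SD Mof+/- (-2.84, SE 1.22, adjusted p = 0.187), and was highest in HFD Mof+/- replicate 1 at 153 CPM.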

How the data were processed

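Poly(A) RNA of visceral WAT was sequenced by the authors as 2 x 100 bp reads from TruSeq v2 libraries, a kit that does not mark strand. Per the labels and methods, reads were mapped to GRCm38 with STAR and assigned to genes with featureCounts (Subread 1.5.0-p1) in snakePipes. The annotation release is not given in the sources used here. The deposited files hold raw counts for 47937 genes in each of the 10 libraries, with no normalization, and every library was used. Over the members, counts of each pair of libraries of a group differed by more than counting error (chi-square per degree of freedom 19.7 to 588), so none was counted as a repeat deposit. Separate animals per library are not stated beyond the label of biological replicates, and p-values measure the spread between these libraries.

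Symbols (47224 of 47937 identifiers, version ignored), positions and lengths came from GENCODE M21, with the length of the transcript of longest coding sequence and, on ties, the shortest. Pairs of groups were fitted to their own libraries in edgeR 4.0.16 (quasi-likelihood, TMM, filterByExpr), Benjamini-Hochberg adjusted over all genes at 0.05, and the interaction to all 10. All 76 members passed the filter. Log2 fold changes are edgeR's, CPM use the total of counts on genes without TMM, and SE is the log2 fold change divided by the root of F. DESeq2 1.42.0 and other settings were alternatives. Fits were tested on simulated counts with less spread between replicates than these libraries had. That test does not show how the fits behave at the spread seen here.

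Genes were named by rule: per comparison up to 8 members each way of lowest adjusted p, or the 5 of lowest p where none passed, the extremes of fold change, level and length, and fixed members of the stalk, 5S particle, reference and X-linked lists with 8 others; of other lists all or the first 3. Members and lists were chosen with earlier results of these data known. Lengths of principal transcripts, the lookup of Rps3a1 and separation after TMM were added after the data were seen. Start windows are from RefSeq (GRCm38.p6); 20 members had none in the table, and chromosome 18 was left out of the sequences. A few genes are left out of the text.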

Additional observations from a re-analysis of the deposited data

Results flagged for a closer look

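Opposite movement in the compared groups was seen for some members after TMM scaling. With HFD, every Mof+/+ library of 13 genes was above every SD library while in Mof+/- every HFD library was below every SD library, an order held by 4.04% of the 13144 genes tested in both. Their log2 fold changes with HFD in Mof+/- were -0.33 for Rpl11, -0.81 for Rpl14, -0.38 for Rpl15, -0.87 for Rpl17, -0.57 for Rpl19, -0.39 for Rpl23a, -0.46 for Rpl27a, -0.97 for Rpl4, -0.58 for Rpl6, -0.73 for Rpl7a, -0.72 for Rpl9, -0.58 for Rps16 and -0.63 for Rps7. In Mof+/+ the same genes had values from 0.52 to 1.07. By genotype, Rpl4 was above Mof+/+ in every SD Mof+/- library and below it in every HFD Mof+/- library, with a value on HFD of -0.47 against 1.002 on SD. That order was held by 3.57% of the 13120 genes tested in both and by 2 of the 76 members, Rpl4 among them. Only the order of libraries was compared. The interaction test of edgeR, which tests the same difference, passed for none of these 13 genes, with adjusted p from 0.245 to 0.436.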

How the results depend on the processing

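The medians of genotype on SD and of diet in Mof+/+ were positive in every alternative run except the grouping by headings, while the number of members past the threshold varied. For genotype on SD (27 members, median 1.50), the count was 74 with DESeq2, 11 with its size factors, 3 without TMM, 72 without a filter, 57 with at least 10 counts in every library and 8 in a fit to all 10 libraries, where 9.35, 2.68, 1.18, 4.9, 6.81 and 0.83% of all genes rose. It was 0 after the length correction (median 0.46, 1.64% of all genes rose) and 0 by the headings inside the files (median -0.084, 0%). For diet in Mof+/+ (12 members, median 0.91) it was 52 with DESeq2, 4 without TMM, 34 without a filter, 29 with the minimum of 10 and 0 in a fit to all 10 libraries, where 10.2, 4.33, 5.01, 9.24 and 0.78% of all genes rose, and it was 0 after the length correction (0.35, 4.22%) and 0 by the headings (-0.059, 0%). The cause of these shifts in counts was not tested. The medians of genotype on HFD were -0.029 without TMM, where all genes had -0.54, and 1.12 after the length correction, where all genes had 0.79. Those of diet in Mof+/- were 0.60 after the length correction, where all genes had 0.56, and 0.28 by the headings, and those of the interaction were 0.55 after the length correction, where all genes had 0.51, and 0.30 by the headings, and DESeq2 called 1 member.

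Without 1 library at a time the counts ran from 0 to 51 for genotype on SD, 0 to 5 on HFD, 0 to 64 for diet in Mof+/+ and 0 to 4 for the interaction (4 lower without HFD Mof+/- replicate 2, where 14.9% of all genes were lower, a larger share than of the members), and no member passed in any for diet in Mof+/-. Medians of the members ran from 1.10 to 1.78, 0.085 to 0.52, 0.73 to 1.17, -0.62 to 0.047 and -1.60 to -0.90, in the order of genotype on SD, genotype on HFD, diet in Mof+/+, diet in Mof+/- and the interaction. For diet in Mof+/-, 0% of all genes passed without SD Mof+/- replicate 1, 2 or 3. Genes outside the family did pass without HFD Mof+/- replicate 1 or 2, fits in which that group kept a lone library. Without HFD Mof+/- replicate 1 the median of the members was -0.41 and that of all genes -0.18. Without HFD Mof+/- replicate 2 the median of the members was -0.40 and that of all genes -1.38. Rpl24 with diet in Mof+/- ran from -2.22 to 0.29, and the interaction of Rplp2 from -0.83 to 0.53.

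Replicate numbers are shared by the groups. Deviations of same-numbered SD libraries correlated at 0.0523, 0.0530 and 0.0985 (Pearson's r for numbers 1, 2 and 3), all under 0.1, so the numbers were not taken to pair them, although all 6 SD libraries correlated best with their own number in the other genotype, a hint from the data and not from the design. With a replicate block 53 members passed for genotype on SD and 25 for diet in Mof+/+, where 2.02 and 5.86% of all genes rose, and for diet in Mof+/- the median was 0.054 and Rpl24 0.078.

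By the headings much of the family turned in sign. Positive members numbered 29 for genotype on SD and 31 for diet in Mof+/+, where all 76 had been positive. They numbered 60 for diet in Mof+/- and 54 for the interaction, against 3 and 0 in the main fits. Only the members of lowest p or extreme value in each comparison are listed here. On SD those that turned were Rpl34 (-0.14), Rps12 (-0.40), Rps25 (-0.067), Rpl36a (-0.44) and Rpl38 (-0.64). With diet in Mof+/+ they were Rps12 (-0.32), Rpl41 (-0.59), Rpl38 (-0.50) and Rplp0 (-0.17). Rpl24 (0.69) turned with diet in Mof+/-, and Rplp2 (1.94) and Rpl24 (1.51) in the interaction. The length correction moved the median of all genes to 0.79 for genotype on HFD, 0.56 for diet in Mof+/- and 0.51 for the interaction. Positive members then numbered 76, 75 and 69, against 62, 3 and 0 in the main fits. Of the listed members, Rpl4 turned on HFD (0.75). With diet in Mof+/- Rpl4 (0.073), Rps3 (0.23), Rpl17 (0.072), Rpl7a (0.24) and Rps6 (0.28) turned. In the interaction Rpl17 (0.10), Rps25 (0.46), Rpl7a (0.26), Rpl11 (0.37) and Rplp2 (1.95) turned. All of these but Rplp2 lay below the moved median of all genes. With diet in Mof+/+, where that median was -0.05 and 66 members were positive, Rplp0 turned (-0.057).

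Shares of counts divided by length were 7.56, 13.1, 11.3 and 10.1% in the order SD Mof+/+, SD Mof+/-, HFD Mof+/+ and HFD Mof+/-, and HFD Mof+/- had 6.25% without mitochondrial and muscle genes in the total. Among members, Spearman's coefficient of fold change with length (-0.39, -0.45, -0.26, -0.27 and -0.01 in the order of the comparisons above) was -0.16, -0.078, -0.15, -0.010 and 0.12 with the union of exons. It was -0.25 for genotype on SD, -0.24 for genotype on HFD and -0.16 for diet in Mof+/- without members under 500 bases. With the principal coding sequence, added after the data were seen, it was -0.64 for genotype on SD, -0.61 for diet in Mof+/+ and 0.19 for the interaction, and with the principal transcript 0.10 for the interaction.

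Depth was lowest in HFD Mof+/- replicate 1, and limits Rpl24 most, with as few as 3 counts in a library.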

Other observations

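In SD Mof+/- replicate 3, 76 of 76 members lay above their own mean over the 10 libraries, and its members under 500 bases held 21.7% of the counts of the family. That value was 16.9, 17.0 and 16.6% in SD Mof+/+, 16.5 and 18.0% in the other SD Mof+/- libraries, 17.1 and 18.0% in HFD Mof+/+ and 21.9 and 21.6% in HFD Mof+/-. The 3 stalk genes held 5.62 to 8.73% of the counts of the family, with the lowest share in SD Mof+/- replicate 1 and the highest in HFD Mof+/- replicate 2.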
